A study of Rattus norvegicus with 12 samples.

Results

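Transcripts of the lipid droplet and of the lipases that empty it were followed in rat liver through 8 genes: Plin2, Plin3, Plin5, Cideb, Pnpla2, Abhd5, G0s2 and Mgll. The genes were chosen by name, with earlier results of these data known. Every probe set that the platform annotation assigns to 1 of them alone was taken. This gave 13 probe sets of the 31042 on the array that are not controls. Plin2 and Abhd5 are each read by 2 of them, Mgll by 4 and the other genes by 1. RNA of 12 livers was hybridised, 1 Affymetrix array per rat. The Sprague Dawley animals were germ-free rats (animals 1, 3 and 4), which live without microbes, and normal rats that were not germ-free (6, 7 and 8). The Han Wistar animals were rats dosed with antibiotic (13, 14 and 15) and untreated controls (1, 2 and 3). The antibiotic was streptomycin (4 mg/ml) and penicillin (2 mg/ml) in the drinking water for 8 days. The labels leave unsettled whether these values describe a stock solution or the water as drunk. They give no sex, age, diet or time of tissue collection, any of which, if it differed between the Sprague Dawley groups, cannot be told apart from the germ-free condition. Each strain was a separate experiment, so each treated group was set against the control of its own strain.

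A lipid droplet is a core of triglyceride and cholesterol ester under a single layer of phospholipid, and its coat proteins decide how easily the core is reached. In hepatocytes Plin2 is the main coat protein, Plin3 moves from the cytosol onto young droplets, and Plin5 is found where droplets touch mitochondria. Cideb acts in droplet fusion and in loading lipid onto very low density lipoprotein. Stored triglyceride is opened by the lipase ATGL, the product of Pnpla2, which Abhd5 (CGI-58) activates and G0s2 inhibits. Mgll, monoacylglycerol lipase, splits off the last fatty acid. Several of these genes are known targets of the fatty acid receptor PPAR-alpha.

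The start regions of 3 of the genes whose transcripts differed between germ-free and normal livers are shown, because they hold short motifs of known transcription factors. Each runs from 250 bases before to 50 bases after the start site in RefSeq (build GRCr8), 5′ to 3′ on the gene's strand. Capitals mark CACGTG, the core E-box, or AGGTCA, a nuclear receptor half-site, on either strand.
Plin2, chr5:106228969-106229268, minus strand: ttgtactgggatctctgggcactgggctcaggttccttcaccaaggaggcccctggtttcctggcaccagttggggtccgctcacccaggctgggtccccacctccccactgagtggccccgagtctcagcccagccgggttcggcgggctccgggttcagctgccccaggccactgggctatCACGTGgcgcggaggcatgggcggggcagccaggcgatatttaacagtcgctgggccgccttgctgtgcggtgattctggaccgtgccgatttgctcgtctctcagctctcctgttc
Mgll, chr4:122749186-122749485, plus strand: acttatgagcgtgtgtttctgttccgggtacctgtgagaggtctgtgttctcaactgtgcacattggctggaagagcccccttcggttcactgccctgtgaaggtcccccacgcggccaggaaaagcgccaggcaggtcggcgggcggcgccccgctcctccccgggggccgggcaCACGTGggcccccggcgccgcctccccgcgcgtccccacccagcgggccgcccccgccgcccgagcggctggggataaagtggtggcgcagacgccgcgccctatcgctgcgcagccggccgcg
Plin5, chr9:1033235-1033534, minus strand: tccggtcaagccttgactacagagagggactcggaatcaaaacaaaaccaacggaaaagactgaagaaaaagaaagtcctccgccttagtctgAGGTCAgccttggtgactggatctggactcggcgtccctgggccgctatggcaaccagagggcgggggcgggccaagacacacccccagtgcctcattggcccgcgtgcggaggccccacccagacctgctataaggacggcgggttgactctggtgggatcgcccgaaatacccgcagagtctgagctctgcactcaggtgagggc
CACGTG stood 67 bases before the start in Plin2 and 74 before it in Mgll, and AGGTCA stood 157 bases before it in Plin5. All 8 genes were matched, with 9 such windows, since RefSeq gives Plin2 another start whose window holds neither motif. The windows of Abhd5 and G0s2 also hold AGGTCA, and those of Plin3, Pnpla2 and Cideb hold neither motif. Over all 33465 windows of the same length, 6.42% hold CACGTG and 16.2% hold AGGTCA. The full direct repeat AGGTCANAGGTCA, which PPAR-alpha can bind, was in none of the 9 windows and in 0.0538% of all windows. These matches describe letters in a window and not binding.

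Across all probe sets 12.2% (1901 of 15523 tested) differed between germ-free and normal livers at an adjusted p under 0.05 by limma, 5.39% lower and 6.86% higher. Without germ-free animal 3 the count was 1006. Only probe sets with a mean signal of at least 19.67 over the 12 arrays were tested, and 12 of the 13 probe sets of these genes reached it. Changes are given as differences of log2(signal + 16) with a standard error (SE), from 3 against 3 animals. This scale understates the change of dim probe sets. The tissue label was checked with 7 hepatocyte markers, albumin among them, whose summed signal ran from 30748 to 60334 over the 12 livers. RNA quality was read from the actin control probe sets, whose 3′ signal exceeds the 5′ signal more as RNA breaks down. That ratio was 4.39 ± 0.762 (SD, n = 3) in germ-free and 5.37 ± 0.839 in normal livers (exact permutation test, two-sided p = 0.2, where 0.1 is the smallest possible). The labels do not say whether animals shared a cage or litter, and p-values measure the spread between these animals.

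In germ-free livers 7 of the 12 tested probe sets fell and none rose, against 5.39% of all probe sets that were lower. They read 5 of the 8 genes: Plin2, Plin3, Plin5, Pnpla2 and Mgll. The same 7 had groups that did not overlap, which 12.1% of all tested probe sets showed in the lower direction. The brightest probe sets of the 8 genes had a median log2 change of -1.23, where the median over all 9300 genes was 0.03. These shares and medians are a description, since the genes were chosen with earlier results known. In whole liver, fewer cells of a type and less RNA per cell cannot be told apart. None of these 7 calls was lost under any of the 25 alternative settings tried in which the probe set was tested.

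Plin2, the main droplet coat gene of hepatocytes, fell on its bright probe set 1390383_at. The signals in germ-free livers were 1323.5, 1201.2 and 1587.7, and in normal livers 3764.5, 3023.2 and 2987.8. Even the highest germ-free animal lay well below the lowest normal one. The log2 change was -1.24 ± 0.12 (SE), with an adjusted p of 4.36e-05. The dim probe set of Plin2, 1382680_at, had signals of 95.5, 83.7 and 114.5 in germ-free and of 76.6, 87.8 and 80.4 in normal livers. Here the groups overlapped, and the log2 value was 0.22 ± 0.17 (adjusted p = 0.448). Within each animal, the log2 ratio of the bright to the dim probe set was 3.61 ± 0.02 (SD) in germ-free and 5.06 ± 0.25 in normal livers, given as a description. The probe sets therefore disagreed on Plin2. With their log2 values averaged, the change was -0.51 (adjusted p = 0.0121). The annotation ties them to different sequence records, and which part of the transcript they read was not tested.

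Plin3, a coat protein that also resides in the cytosol, fell from 529.1, 407 and 518.9 in normal to 203.5, 205.6 and 183 in germ-free livers. The germ-free animals lay close together, and all of them were below the normal range. The log2 change was -1.22 ± 0.15 (adjusted p = 0.000255). Plin5, the coat gene of droplets at mitochondria, had normal signals of 94.5, 90.2 and 94.3. The germ-free signals were 31.5, 22.9 and 14.4, so the groups stood far apart. Its log2 change was -1.51 ± 0.16 (adjusted p = 6.12e-05). Germ-free signals of Plin5 straddled the filter value of 19.67, so the size depends on the offset, with -2.04 at an offset of 1 and -0.86 at 64. Its mean over the 9 animals that are not normal was 23.3, so the probe set would also have passed the filter without the normal group.

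Cideb, which acts in droplet fusion and lipoprotein loading, did not pass the test. Its signals were 1025.3, 676.4 and 825.9 in germ-free and 1112.8, 858.7 and 1045.9 in normal livers. The groups overlapped, with a log2 value of -0.26 ± 0.14 (adjusted p = 0.256) and a 95% interval from -0.57 to 0.05.

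**Figure D1:**
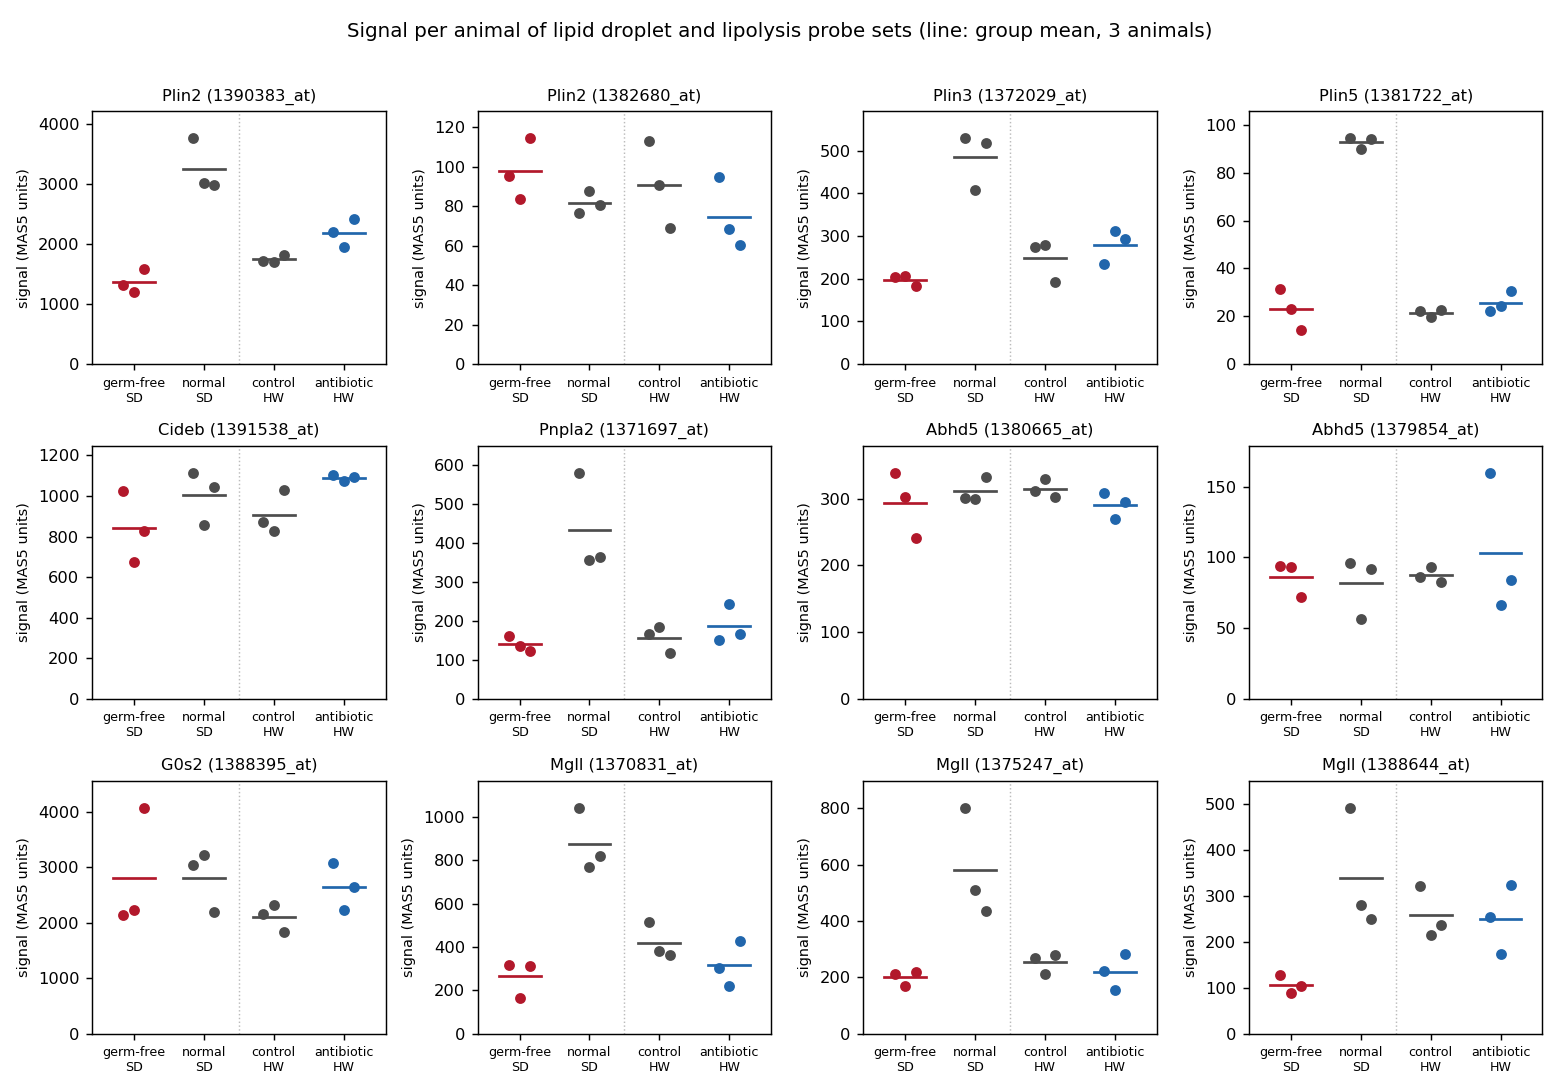
Signal (linear MAS5 units) of the 12 tested probe sets in each of the 12 livers; each point is 1 animal, each line a group mean, SD is Sprague Dawley and HW Han Wistar. The normal animals stand above the germ-free ones for the bright Plin2 probe set (2987.8 and above against 1587.7 and below), Plin3, Plin5, Pnpla2 and 3 Mgll probe sets, while Cideb, Abhd5, G0s2 and the dim Plin2 probe set overlap.

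Among the genes of lipolysis the triglyceride lipase fell while its activator and its inhibitor did not pass the test. Pnpla2 had signals of 162.1, 134.9 and 121.4 in germ-free and 578.5, 356.6 and 364.1 in normal livers. Normal animal 6 stood above the other two normal animals, and all of them were above the germ-free range. The log2 change was -1.50 ± 0.21 (adjusted p = 0.00055). Abhd5, the activator, had signals of 338, 301.8 and 240.8 in germ-free and 301.2, 298.6 and 332.7 in normal livers on its brighter probe set, 1380665_at. The groups overlapped there (log2 -0.09 ± 0.12, adjusted p = 0.677, 95% interval from -0.35 to 0.17). They also overlapped on the dimmer probe set 1379854_at, with a log2 value of 0.08 ± 0.24 (adjusted p = 0.852).

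G0s2, the inhibitor of the same lipase, varied more between germ-free animals than between the groups. Its signals were 2138.7, 2220.8 and 4062.8 in germ-free and 3032.1, 3208.9 and 2195.8 in normal livers. Germ-free animal 4 was the highest of all 12 rats, and the other two germ-free animals lay near the lowest normal one. The log2 value was -0.05 ± 0.22 (adjusted p = 0.911), with a 95% interval from -0.51 to 0.42. Within each animal, the log2 ratio of G0s2 to Pnpla2 signal was 3.60, 3.89 and 4.89 in germ-free and 2.36, 3.11 and 2.54 in normal livers. The groups did not overlap, and the ratio was 1.46 higher in germ-free livers. This restates the fall of Pnpla2 (-1.50) beside a G0s2 value of -0.05 and is not a further result. In Han Wistar livers this ratio was 3.73 ± 0.56 (SD) with antibiotic and 3.63 ± 0.14 without, and the groups overlapped. The ratio compares changes of the 2 probe sets and not the amounts of the 2 transcripts.

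**Figure D2:**
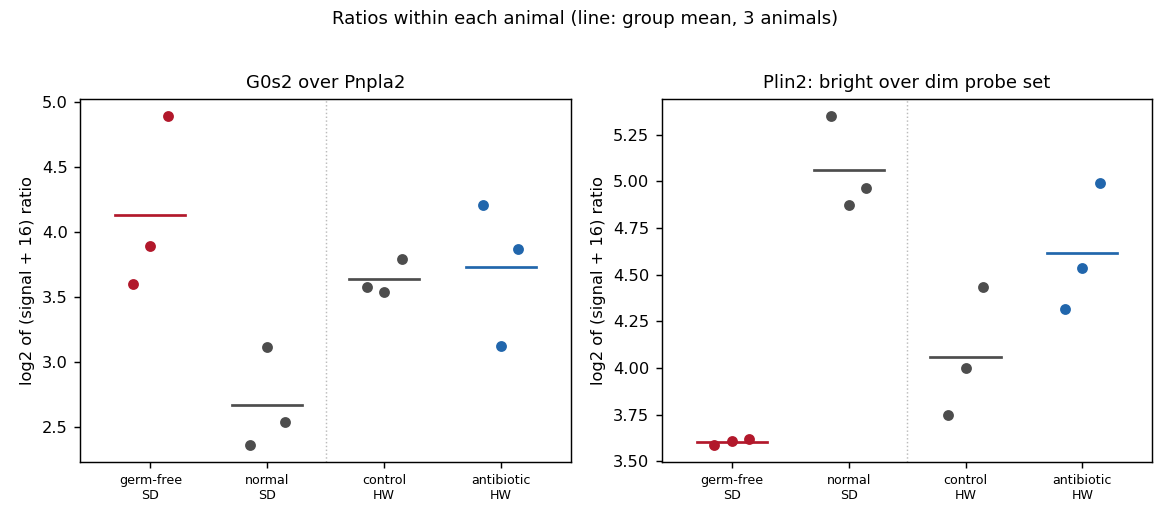
Left, log2 ratio of G0s2 to Pnpla2 signal (each + 16) within each animal; right, log2 ratio of the bright to the dim Plin2 probe set. Points are animals and lines are group means of 3, and neither vertical axis starts at 0. Germ-free livers lie above normal livers on the left (group means 4.13 and 2.67) and below them on the right (3.61 and 5.06).

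Mgll, the last lipase of the chain, fell on each of its 3 tested probe sets. On 1370831_at the signals were 318.5, 164.3 and 313.7 in germ-free and 1041.5, 770.8 and 820.4 in normal livers (log2 -1.71 ± 0.25, adjusted p = 0.000781). On 1375247_at they were 211, 168.9 and 220.5 against 800.3, 508 and 435.6 (log2 -1.43 ± 0.22, adjusted p = 0.00109). On 1388644_at they were 127.6, 87.9 and 104.1 against 492, 280.5 and 249.1 (log2 -1.49 ± 0.25, adjusted p = 0.00172). Germ-free animal 3 was the lowest and normal animal 6 the highest animal of its group on all of these 3 probe sets. The probe sets read 1 gene and are not independent evidence. The fourth, 1375355_at, lay under the filter, with signals of 12.8, 11.7 and 10.3 in germ-free and 2.8, 1.9 and 1.3 in normal livers, so it was not tested and is given as values only. It ran the opposite way to the other Mgll probe sets.

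In Han Wistar rats 0 of the 12 tested probe sets passed limma's test between antibiotic-dosed and control livers. Over all probe sets 0.0193% did (3 of 15523), and the count without control animal 1 was 9 and without control animal 2 was 1. At an unadjusted p under 0.05 stood 1 of the 12, the bright Plin2 probe set, and 9.97% of all probe sets. The signals of this Plin2 probe set were 2193.4, 1947.8 and 2412.5 with antibiotic and 1716, 1694.5 and 1817.7 without. All 3 dosed animals were above the 3 controls, with a log2 value of 0.32 ± 0.12 and an adjusted p of 0.397. Cideb was also higher in all 3 dosed animals, at 1106.1, 1073.4 and 1092.1 against 870.7, 825.2 and 1030.6 (log2 0.27 ± 0.14, adjusted p = 0.579). Among all tested probe sets 9.57% had groups that did not overlap in this direction, against these 2 of 12. The summed signal of the 7 hepatocyte markers was higher in the dosed livers too, from 40944 to 50821 against 30748 to 37069 (median log2 value 0.42, 0 of 7 passed). The sums of 7 macrophage markers did not overlap either, from 1679 to 2499.3 against 1206.3 to 1676.4 (median log2 value 0.56, 0 of 7 passed), nor did those of 5 lymphocyte and neutrophil markers, from 85.6 to 130.9 against 56.8 to 76 (0 of 1 tested passed). The part of these cell type markers in the values of Plin2 and Cideb was not tested.

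The other probe sets overlapped between dosed and control livers. The 95% intervals of the log2 change were -0.17 to 0.50 for Plin3, -0.18 to 0.49 for Plin5, -0.23 to 0.68 for Pnpla2 and -0.14 to 0.79 for G0s2. Mgll values were -0.42 on 1370831_at, -0.21 on 1375247_at and -0.06 on 1388644_at (adjusted p = 0.629, 0.812 and 0.967). The intervals of Plin3, Plin5 and Pnpla2 do not reach the changes measured in germ-free livers.

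**Figure D3:**
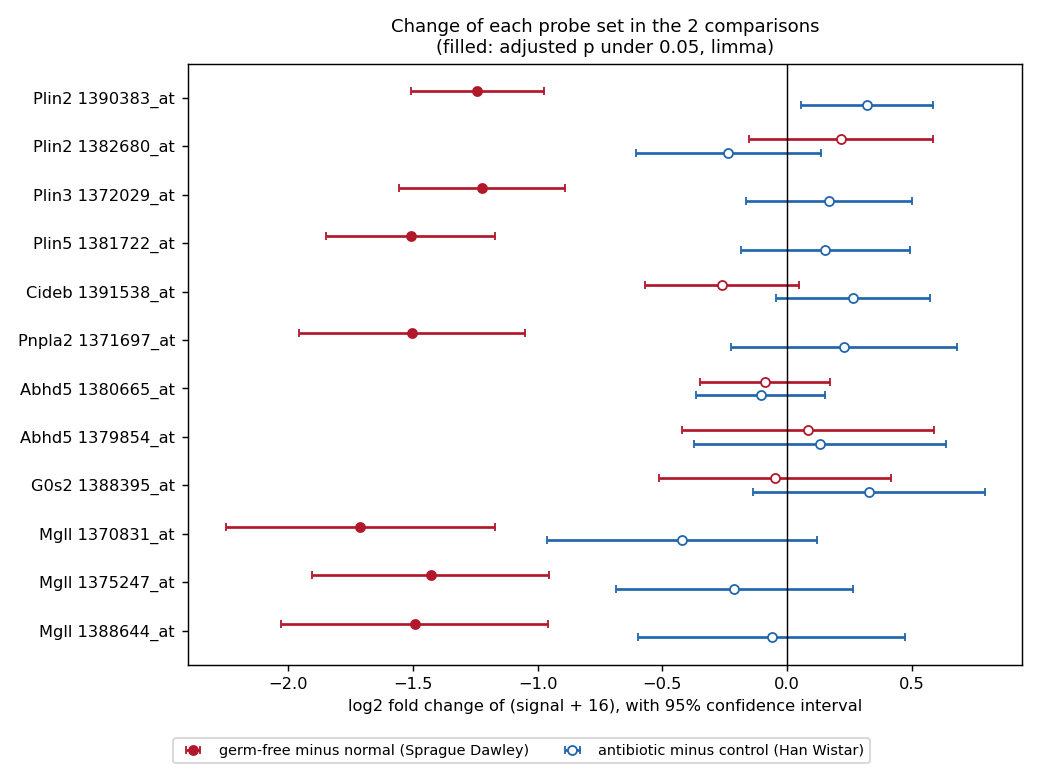
Log2 fold change of each tested probe set with its 95% confidence interval in the germ-free comparison (red) and the antibiotic comparison (blue); filled points passed at an adjusted p under 0.05 by limma. The 7 red points that passed lie between -1.71 and -1.22, and all blue points lie between -0.42 and 0.33 and are open.

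The difference between the comparisons was tested directly, as the germ-free change minus the antibiotic change. It passed for 6 of the 12 probe sets, all lower, where 5.03% of all probe sets passed and 2.56% were lower. The difference was -1.56 ± 0.17 for the bright Plin2 probe set (adjusted p = 0.000292), -1.39 ± 0.22 for Plin3 (0.0031), -1.66 ± 0.22 for Plin5 (0.0011) and -1.73 ± 0.30 for Pnpla2 (0.00521). For Mgll it passed on 1388644_at (-1.43 ± 0.35, adjusted p = 0.0345) and 1375247_at (-1.21 ± 0.31, 0.0411) and missed on 1370831_at (-1.29 ± 0.36, 0.0533). These Mgll results stood near the threshold: 1375247_at missed the threshold in 13 of 22 alternatives, 1388644_at in 9 of 22, and 1370831_at passed in 8 of 24. Cideb had a difference of -0.53 ± 0.20 (adjusted p = 0.158), and 0.0492 without germ-free animal 1. The comparisons also differ in strain, experiment, actin ratio and length of exposure, which cannot be told apart in this difference.

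Set side by side, the levels of the genes that fell had their highest group mean in normal Sprague Dawley livers. For 6 of the 12 tested probe sets every normal animal stood above all 9 other rats, and 5.23% of all tested probe sets showed this. These were the bright Plin2 probe set, Plin3, Plin5, Pnpla2 and Mgll on 1370831_at and 1375247_at. Plin5 stood at 93 ± 2.43 (SD) in normal, 25.7 ± 4.35 in antibiotic, 22.9 ± 8.55 in germ-free and 21.4 ± 1.68 in control livers, and the last 3 groups overlapped. Pnpla2 stood at 433 ± 126 in normal, 187 ± 48.8 in antibiotic, 156 ± 34.4 in control and 139 ± 20.7 in germ-free livers, again with overlap among the last 3. Plin3 followed the same order, at 485 ± 67.7, 280 ± 40.8, 249 ± 48.6 and 197 ± 12.5. Plin2 ran from 3258.5 ± 439 in normal to 2185 ± 232 in antibiotic, 1743 ± 65.8 in control and 1371 ± 198 in germ-free livers, and none of these neighbours overlapped. Mgll on 1370831_at stood at 878 ± 144 in normal, 421 ± 84.9 in control, 317 ± 104 in antibiotic and 266 ± 87.7 in germ-free livers. Mgll on 1388644_at was spread differently, at 340.5 ± 132 in normal, 258 ± 55.5 in control, 250.7 ± 75.1 in antibiotic and 107 ± 20.0 in germ-free livers. There the normal, control and antibiotic groups overlapped and the germ-free animals stood below all others. Strain and experiment coincide, so no test was made across them. The actin ratios did not overlap between the strains. In Han Wistar livers they were 2.55 ± 0.123 (SD) in control and 2.73 ± 0.131 in antibiotic livers, with a highest value of 2.87. The lowest Sprague Dawley ratio was 3.62, in a germ-free liver.

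Other genes of the pathway were read from lists, each gene by its brightest probe set, beside a background of 12.6% of the 9300 genes (6.44% lower, 6.13% higher). Among 17 other lipases and ester hydrolases 5 fell, none rose and the remaining 12 missed the threshold, with a median log2 change of -0.34. Lipa, the acid lipase of lysosomes, changed by -0.92 ± 0.11 (adjusted p = 0.000198). Carboxylesterases Ces2c (-1.62 ± 0.23), Ces1d (-0.94 ± 0.15), a triglyceride hydrolase of the liver, and Ces1e (-0.67 ± 0.10) fell too, although close copies in this family may share a probe set. Abhd6, another monoacylglycerol lipase, fell by 0.96 on the log2 scale. Without germ-free animal 1 the list had 8 genes that fell and 1 that rose. Lipe, hormone-sensitive lipase, had a log2 value of 0.03 (adjusted p = 0.922).

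Of 20 other genes of droplet coat and formation 1 fell, 0 rose and 19 did not pass (median -0.15). The gene that fell was Fitm2, which partitions triglyceride into nascent droplets (-0.83 ± 0.20, adjusted p = 0.0172). Its other probe set gave -0.51 (adjusted p = 0.111), and Fitm2 missed the threshold when any 1 of germ-free animals 3 and 4 and normal animal 6 was left out (adjusted p = 0.0597 to 0.0855). Leaving out single animals moved the number that fell between 0 and 4, the latter without germ-free animal 1. Plin1 and Plin4, coat genes typical of fat cells, lay under the filter, with group means of at most 8.60 and 13.2. Cidea had a log2 value of -0.97 ± 0.37 (adjusted p = 0.102), which passed without germ-free animal 1 and without antibiotic animal 13 (lowest adjusted p over all alternatives 0.0297). Cidec (0.13, adjusted p = 0.692) and Hsd17b13, a droplet enzyme of hepatocytes (0.40, adjusted p = 0.219), did not pass, though Hsd17b13 did without germ-free animal 1 (0.0132 at the lowest).

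Triglyceride synthesis went both ways, with 2 of 15 genes lower, 2 higher and 11 not passed (median 0.03). The enzymes of the last step moved apart: Dgat1 changed by -0.51 ± 0.11 (adjusted p = 0.00955) and Dgat2 rose by 0.50 ± 0.12 (0.0129), with 0.75 on its other probe set. Agpat2 changed by -0.54 ± 0.13 and Gpat4 rose by 0.33 ± 0.10, with 0.51 on its other probe set (adjusted p = 0.0127). Each of the 4 calls on brightest probe sets was lost without germ-free animal 3. With the actin ratio as a covariate all 4 missed the threshold (adjusted p = 0.068 to 0.159), as did Fitm2, Aqp9 and Rxra (0.129 to 0.174). Dgat2 was lost also without germ-free animal 4 (adjusted p up to 0.0617), and Agpat2 without normal animal 8 (up to 0.0854). Gpat4 was lost in 7 of the 12 fits that left out 1 animal (adjusted p up to 0.1). These animals were germ-free 1, 3 and 4, normal 7 and 8, and control 1 and 2. Dgat1 had an adjusted p of 0.0537 without germ-free animal 3. Fitted on the 6 Sprague Dawley arrays alone, Dgat1 and Gpat4 missed the threshold, while Dgat2 and Agpat2 passed. Aqp9 and Rxra also missed it in that fit.

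In uptake, binding and glycerol release 2 of 14 genes fell, 1 rose and 11 did not pass (median -0.07). The fatty acid binding genes Fabp7 (-0.77 ± 0.12, adjusted p = 0.00114) and Fabp5 (-0.76 ± 0.17, 0.011) fell. Aqp9, the glycerol channel of hepatocytes, rose by 0.53 ± 0.14 (adjusted p = 0.0211) and missed the threshold when any 1 of germ-free animals 3 and 4 and normal animals 6 and 7 was left out (0.0556 to 0.0905). Of 12 regulators 3 rose, 0 fell and 9 did not pass (median 0.46). The lipogenic factor Srebf1 rose by 2.44 ± 0.38, the glucagon receptor Gcgr by 0.79 ± 0.12 and the receptor partner Rxra by 0.67 ± 0.19 (adjusted p = 0.0337, and 0.105 to 0.117 without germ-free animal 3 or 4 or normal animal 6 or 7). Without normal animal 6 the list had 5 genes that rose. Ppara had a log2 value of 0.81 ± 0.26 (adjusted p = 0.0585), with a mean signal of 34.9 in germ-free and 13.8 in normal livers, and it passed without normal animal 6 and without antibiotic animal 13 (lowest adjusted p over all alternatives 0.0183). In the antibiotic comparison 0 of the 78 genes of these 5 lists passed limma's test, against 0.0215% of all genes, and 11 of them stood at an unadjusted p under 0.05, where 10.1% of all genes did.

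**Figure D4:**
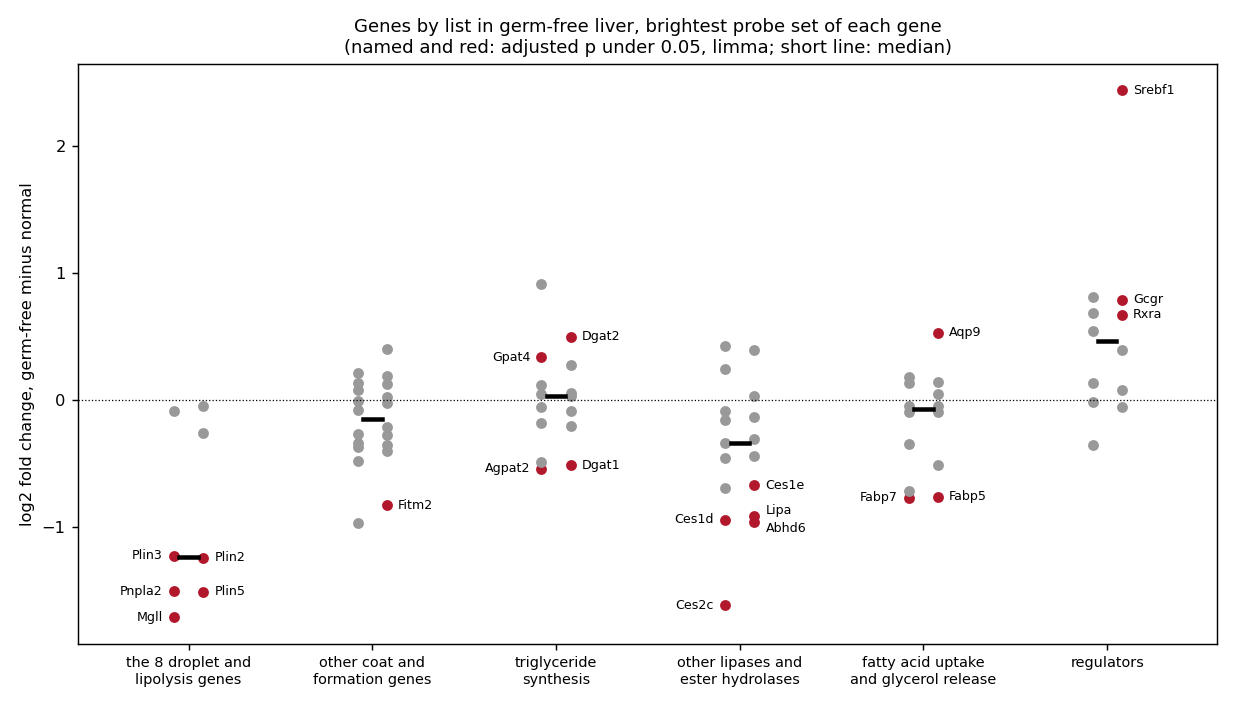
Log2 fold change between germ-free and normal livers of the 8 genes (brightest probe set each) and of 5 lists of related genes; red points are named and passed at an adjusted p under 0.05 by limma, grey points did not pass, and short lines are medians. The median is -1.23 for the 8 genes, -0.34 for other lipases and between -0.15 and 0.46 for the other lists.

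For Plin2, Cideb, Pnpla2 and G0s2 the genes of most similar pattern were sought over the 12 arrays, after each strain was centred on its own mean. The measure was Pearson's r of log2(signal + 16) over 9300 genes, given as a description, since the arrays share their groups. Closest to the bright Plin2 probe set were Acad11 (r = 0.97), an acyl-CoA dehydrogenase, Nhp2 (0.96) and Pank1 (0.96), a pantothenate kinase of coenzyme A synthesis. Within the 6 Sprague Dawley and the 6 Han Wistar arrays r was 0.99 and 0.84 for Acad11, 0.99 and 0.52 for Nhp2, and 0.97 and 0.88 for Pank1, so the likeness of Nhp2 was carried mainly by the Sprague Dawley arrays. Closest to Pnpla2 were Abhd6 (0.97), Plin3 (0.96) and Mrpl12 (0.96), with germ-free log2 changes of -0.96, -1.22 and -0.68. Acad11, Nhp2 and Pank1, beside Plin2, had germ-free log2 changes of -1.32, -0.70 and -1.01. A group difference that 2 genes have in common raises r, so the neighbours of Plin2 and Pnpla2 are not a further result. For the 3 beside Pnpla2, r was 0.97 to 0.98 within Sprague Dawley and 0.78 to 0.91 within Han Wistar arrays. Cideb and G0s2 had less close neighbours, with r of 0.90 for Map4k5, 0.90 for Adcy10 and 0.89 for Cap1 beside Cideb, and 0.87 for Mtmr12, 0.86 for Veph1 and 0.85 for Pomk beside G0s2. Within 1 strain these values ran from 0.68 to 0.97.

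Plin4, Plin5 and Plin3 lie on 1 chromosome in RefSeq (GRCr8), with Plin4 next to Plin5 and 7 protein-coding genes between Plin5 and Plin3. This stretch was examined after the values of Plin3 and Plin5 were seen. All 7 genes between them were tested and 2 passed in germ-free livers, where 12.6% of all genes did. Tnfaip8l1 changed by -1.18 ± 0.16 (adjusted p = 0.000499), whereas Lrg1, the direct neighbour of Plin5, rose by 0.71 ± 0.17 (0.0156). The other 5 had log2 values between -0.20 and 0.22.

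Markers of other cell types were read because fat cells, macrophages and stellate cells also hold droplets. Of the 7 adipocyte markers on the array, Adipoq, Lep, Plin1 and Fabp4 lay under the filter in the mean of all arrays, and their highest signals in any liver were 12.7, 11.2, 14.3 and 25.5. Fabp4 had a mean signal of 17.2 in germ-free and 8.3 in normal livers. The adipocyte markers' summed signal ran from 689.6 to 781.1 in germ-free and from 570.8 to 758.3 in normal livers, so the groups overlapped, and 0 of 3 tested markers passed. Most of this sum was Cidec, with a mean of 514 in germ-free and 472 in normal livers. Cidec is also on the list of droplet genes, so the sum says little about the other adipocyte markers. For 10 stellate cell markers the sums ran from 2108.6 to 2408.7 and from 2340.1 to 2840.8, with 0 of 10 passed. For 7 macrophage markers they ran from 1539.5 to 2012.3 and from 1919.9 to 2656.3, and 1 of 7, the Kupffer cell lectin Clec4f, fell (-0.64, adjusted p = 0.0288), which missed the threshold when any 1 of germ-free animals 1 and 4 and normal animals 7 and 8 was left out (0.052 to 0.118). The median log2 value of the macrophage markers was -0.08, and 3 of the 7 had values above 0. Endothelial markers were higher, with sums from 1278.7 to 1803.4 in germ-free and from 697.2 to 879.5 in normal livers, and 5 of 6 rose (4 to 5 when single animals were left out). The 5 lymphocyte and neutrophil markers summed to 64.9 or less in germ-free and 81.9 or less in normal livers (0 of 1 tested passed), and the 3 bile duct markers overlapped as well (0 of 2). The sums of the 7 hepatocyte markers did not overlap, from 52999 to 60334 in germ-free and from 48480 to 52763 in normal livers. Their median log2 value was 0.17, and 0 of 7 passed. The part of the endothelial and hepatocyte marker differences in the results was not tested.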

How the data were processed

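The authors deposited linear signal intensities, 1 for each probe set of each array, and the submitters' processing notes name MAS5 (version not given in the sources used here). Each array's trimmed mean (2% off each end) lay at 100.0 to 100.1, so values were used as deposited. No detection calls were used here. RNA was extracted on Qiagen RNeasy columns, per the labels' protocols. Of 31099 probe sets 57 controls were set aside. Symbols of the platform annotation were updated to GRCr8 for 20758 probe sets through the gene identifier, for 3 through the accession, and kept for 65; 436 had several symbols and 9780 none.

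Values were analysed as log2(signal + 16) with limma 3.58.1 in R 4.3.3 (lmFit, eBayes, trend on intensity). The model held 1 mean for each group and took in all 12 arrays (8 residual and 5.96 prior degrees of freedom), for every probe set at or above the median mean signal. Two-sided p-values were adjusted (Benjamini-Hochberg) over all 15523 probe sets, with a threshold of 0.05. Arrays of a group correlated at 0.974 to 0.985, and the number of arrays limits the precision. The fit was tested on simulated data. The members and lists were chosen with earlier results of these data known. By rule, all probe sets of the 8 genes were described, up to 4 called genes per list by smallest p, always Plin1, Plin4, Cidea, Cidec, Lipe, Dgat1, Dgat2, Ppara and Hsd17b13, and the 3 genes of most similar pattern for 4 members; Abhd6 is named also as the remaining called lipase, and the neighbours of Plin5 after their values were seen. Alternatives were other offsets, filters, scalings and variance models, an RNA quality covariate, values per gene, and leaving out each animal.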

Additional observations from a re-analysis of the deposited data

Results flagged for a closer look

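For 6 probe sets the germ-free change differed from the antibiotic change by the test of the difference itself (limma, adjusted over all 15523 probe sets): Plin2 1390383_at by -1.56, Plin3 1372029_at by -1.39, Plin5 1381722_at by -1.66, Pnpla2 1371697_at by -1.73, Mgll 1388644_at by -1.43 and Mgll 1375247_at by -1.21 on the log2 scale. In each of them all 3 germ-free animals lay below all 3 normal animals, while antibiotic-dosed and control animals overlapped in all but Plin2, where the dosed animals were higher. Over all probe sets 5.03% passed the test of the difference, 2.56% were lower in it, and 12.1% had all germ-free below all normal animals. The Mgll calls were lost in 13 of 22 alternatives for 1375247_at and 9 of 22 for 1388644_at. Strain, experiment, actin ratio and length of exposure cannot be told apart in this difference.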

How the results depend on the processing

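The germ-free and antibiotic results of the 12 tested probe sets kept their call under all 25 alternatives in which they could be computed: 7 fell and 0 passed, with 8 called without the filter (the dim Mgll probe set then passes with a log2 change of 0.62, opposite to the other 3), 6 at the 75th percentile filter and 5 genes with 1 value per gene. The called Plin5 change ran from -2.04 to -0.86 and that of Plin2 from -1.35 to -0.51. The count of differences ran from 4 to 7 leaving out single animals. Mgll 1375247_at lost its difference without the filter (adjusted p = 0.0771), without a variance trend (0.0534), with the actin covariate (0.11) and without germ-free animal 1, 3 or 4, normal 6 or 7, control 1, 2 or 3 or antibiotic 13 or 15 (0.0514 to 0.102). Mgll 1388644_at lost it without the filter (0.0649), with the covariate (0.103) and without germ-free 3 or 4, normal 6, control 2 or 3 or antibiotic 13 or 15 (0.0549 to 0.087), whereas 1370831_at gained one in 8 alternatives (0.0309 to 0.0483), among them without germ-free 1 or antibiotic 14. Plin2 lost its difference as the mean of its probe sets (-0.55, adjusted p = 0.0705), which includes the dim one.

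Over all probe sets, the germ-free count of 1901 became 855 with the actin covariate and 1226 with 1 probe set per gene, which tests fewer features, and ran from 1006 (without germ-free 3) to 2028 leaving out single animals. The antibiotic count of 3 became 1 at the 75th percentile, 1 on its own 6 arrays and 25 with array weights, and ran from 1 (without control 2) to 9 (without control 1), with 6 without germ-free 1 and 5 without antibiotic 15. The count of 781 for the difference became 496 without the filter, 1229 with array weights and 300 with the covariate, and ran from 435 to 850, with 438 without germ-free 3, 512 without control 1 and 435 without control 2. It could not be fitted on 6 arrays. Other causes were not tested. No paired analysis was possible because the groups compared share no animal numbers. Signals near 20, as for Plin5 in most livers, limit how far a fold change can be read.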
